A study of Mus musculus with 4 samples.

Results

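Small structural RNAs are short RNAs that act as RNA and are not translated. The repeat annotation of the mouse genome lists them by name as repeat rows, because the genome holds many copies of each. The rows described here are the 19 repeat rows whose class was snRNA, scRNA, srpRNA or RNA. They were 19 of the 1445 repeat rows and of the 49382 genes and repeats counted. They comprised 12 snRNA rows (U1, U2, U3, U4, U5, U6, U7, U8, U13, U13_, U14 and U17), 5 scRNA rows (BC1_Mm, HY1, HY3, HY4 and HY5), 1 srpRNA row (7SLRNA) and 1 RNA row (7SK). The class names are those of the annotation, and U3, U8, U13, U14 and U17 are small nucleolar RNAs although their class reads snRNA.

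Total RNA was sequenced from mouse embryonic fibroblasts (MEF cells), connective tissue cells cultured from embryos. Both groups were wild-type MEF cells, and 2 libraries came from untreated cells and 2 from cells exposed to 50 µM genistein for 24 h. Genistein is a plant isoflavone that inhibits tyrosine kinases and poisons topoisomerase II. The labels name no vehicle for the untreated libraries and give no age, strain or origin of the cells, and they do not say whether the replicates were separate cultures, so that p-values may measure only technical spread. The study asked which repeats respond to genistein, and the rows below are its small structural RNAs.

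Library totals ranged from 28591958 to 31464284 counts. Of 8 fibroblast markers, 7 were detected and Thy1 was at 0 in every library. Of 10 markers of other cell types, 9 stayed under 1 CPM (a library's counts scaled to a total of 1e+06). The other, Tubb3, was at 24.8 to 30.5 CPM. Values below are normalised counts, that is, counts scaled to the mean of the 4 effective library sizes. Untreated 1 stood apart from untreated 2 in U2, U3 and other small RNAs of like length, and genistein 1 from genistein 2 in U1, so that each library is given on its own. Libraries are given in the order untreated 1, untreated 2, genistein 1 and genistein 2. Fewer cells of a type and less RNA per cell cannot be told apart in these bulk samples.

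The spliceosome removes introns with the help of 5 small nuclear RNAs. U1 pairs with the 5′ splice site, U2 with the branch point, and U4, U5 and U6 join as a preassembled particle. 7SK holds the elongation kinase P-TEFb in an inactive store, and 7SL is the RNA scaffold of the signal recognition particle, which brings ribosomes that make secreted proteins to the endoplasmic reticulum. U3, U8, U13, U14 and U17 act in ribosomal RNA processing or modification, and Y RNAs bind the Ro protein.

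The first pair of sequences sets Rnu1a1 beside Gm22513, since the largest difference below lay in the U1 row. Most of the counts in annotated U1 genes lay in 1 copy, Gm22513. Other U1 copies were less alike, such as Gm26121 at 80.12% identity to Rnu1a1. Both printed sequences come from the GENCODE transcripts of build GRCm38 and run 5′ to 3′. The capitals mark bases 3 to 11, which pair with the 5′ splice site.
Rnu1a1: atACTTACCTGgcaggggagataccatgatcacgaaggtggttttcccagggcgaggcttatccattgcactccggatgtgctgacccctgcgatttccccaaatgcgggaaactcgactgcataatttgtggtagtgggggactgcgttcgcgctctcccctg
Gm22513: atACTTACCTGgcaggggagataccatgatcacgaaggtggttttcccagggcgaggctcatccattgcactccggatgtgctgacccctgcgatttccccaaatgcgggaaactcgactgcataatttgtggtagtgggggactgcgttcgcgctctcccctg
Rnu1a1 is an annotated snRNA gene at chr11:87422867-87423030 on the plus strand, and Gm22513 is one at chr12:54696782-54696945 on the plus strand. The 164 bases differed at 1 position, T60C, with Rnu1a1 first and positions counted from 1 at the 5′ end.

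The next sequence is U2, shown because its row differed most between libraries of the untreated group together with U3. The capitals mark GTAGTA, the bases that recognise the branch point.
Rnu2-10: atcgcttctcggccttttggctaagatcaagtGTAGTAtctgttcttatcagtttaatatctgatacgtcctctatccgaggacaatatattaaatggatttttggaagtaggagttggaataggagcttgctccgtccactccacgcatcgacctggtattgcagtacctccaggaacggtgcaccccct
Rnu2-10 is an annotated snRNA gene at chr11:101658238-101658428 on the plus strand. GTAGTA starts at base 33 and was searched on the transcript strand. It stood in the first 191 bases of 4.39% of 456 small transcripts of at least that length.

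The remaining sequences belong to 7SK, whose row fell, and to BC1. For 7SK, bases 1 to 110 of the 331 of Rn7sk are given, with every GATC in capitals. The motif occurs in the stem that binds HEXIM, but not every marked copy lies in that stem. For BC1 the capitals mark runs of 6 or more A, which form its A-rich middle.
Rn7sk: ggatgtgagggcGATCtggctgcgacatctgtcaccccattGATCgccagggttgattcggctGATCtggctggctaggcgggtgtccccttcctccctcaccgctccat
Bc1: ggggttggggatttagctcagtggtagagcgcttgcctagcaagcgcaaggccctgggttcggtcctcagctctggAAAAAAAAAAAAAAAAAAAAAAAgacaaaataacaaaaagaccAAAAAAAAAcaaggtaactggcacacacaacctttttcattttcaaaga
Rn7sk lies at chr9:78175303-78175633 on the minus strand and Bc1 at chr7:144914470-144914637 on the plus strand. GATC occurred 3 times in the printed bases of Rn7sk, and 31.9% of 1914 small transcripts held it at least once in their first 110 bases. Runs of 6 or more A stood in the first 168 bases of 4.14% of 532 small transcripts.

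Together the 19 rows took 5.16% and 5.58% of all counts without genistein and 2.96% and 2.88% with it. Most of this was 7SL. The srpRNA class made up 4.7%, 5.04%, 2.5% and 2.47% of the 4 libraries, and the RNA class, that is 7SK, 0.37%, 0.379%, 0.249% and 0.25%. The snRNA class made up 0.0778%, 0.154%, 0.199% and 0.158%, so that untreated 1 stood apart from untreated 2. The scRNA class made up 0.00752%, 0.00775%, 0.0105% and 0.0104%, higher in both genistein libraries.

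Of the 19 rows, 10 passed the filter on low counts and 9 did not. In edgeR's quasi-likelihood test, with p-values adjusted by Benjamini-Hochberg across 17358 genes and repeats, 3 of the 10 were higher with genistein at an adjusted p under 0.05 (U1, U6 and BC1_Mm) and 2 were lower (7SK and 7SLRNA), where U6 lost its call and BC1_Mm was called lower when repeats were scaled among themselves. Over all genes and repeats 36.2% were higher and 36.0% lower, and over the 1118 repeats 76.3% were higher and 2.86% lower. The median log2 fold change was 0.27 over the 10 rows, 0.69 over all repeats tested and -0.03 over all genes tested. When a log2 fold change beyond 1 in either direction and a mean above 100 normalised counts were also required, 2 rows were past all thresholds, U1 and 7SLRNA, beside 7.82% of all genes and repeats.

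**Figure D1:**
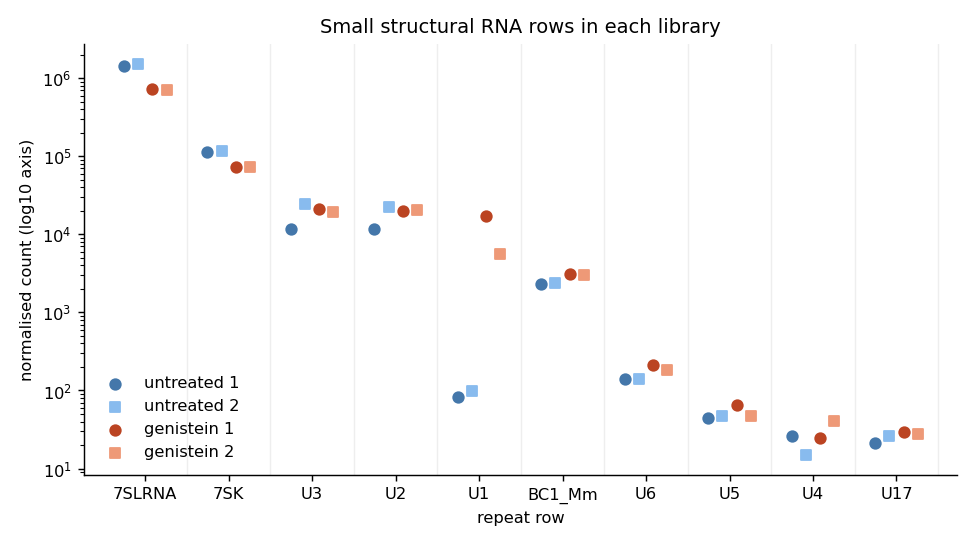
Normalised count (log10 axis) for the 10 small structural RNA rows that passed the filter, 1 point for each of the 4 libraries, with circles for replicate 1 and squares for replicate 2. The U1 row lies at 81.9 and 97.4 without and at 17439 and 5531 with genistein, and untreated 1 lies apart from the other libraries in U2 and U3.

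The U1 row, whose RNA recognises the 5′ splice site, rose with genistein. It held 82, 92, 18598 and 5464 raw counts, or 81.9, 97.4, 17439 and 5531 normalised counts. The groups did not overlap, and the genistein libraries differed from each other by 1.66 on the log2 scale. The log2 fold change came to 7.0 (standard error, SE, 0.50), which is 128-fold (adjusted p = 2.5e-09, edgeR), rank 1 of the 1118 repeats. Without genistein 1 the log2 fold change was 5.95, and without genistein 2 it was 7.61.

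The annotated U1 genes did not show a rise of that size. The table held 69 genes whose transcripts matched U1, and their summed normalised counts were 1220, 1887, 2339 and 2296. The row's share of all U1 counts was therefore 6.29%, 4.91%, 88.2% and 70.7%. Gm22513, the U1 gene with the most counts, was at 1031, 1679, 2162 and 2123, a log2 fold change of 0.67 (SE 0.13, adjusted p = 1.7e-04, edgeR). Next by counts, Gm24305 was at 26.0, 41.3, 52.5 and 58.7 (0.73, SE 0.23, adjusted p = 0.011) and Gm22068 at 56.9, 52.9, 20.6 and 25.3 (-1.26, SE 0.23, adjusted p = 1.3e-04). Rnu1a1 was at 48.9, 38.1, 32.8 and 33.4 (-0.40, SE 0.23, adjusted p = 0.13). Of the 5 U1 genes tested, 2 were higher and 2 lower, close to the 33.5% higher and 38.2% lower over all genes. In the higher genes, Gm22513 and Gm24305, untreated 2 lay above untreated 1 by 0.70 and 0.67 on the log2 scale. Both genistein libraries lay above untreated 2 as well, and the part of untreated 1 in these calls was not tested.

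When the U1 row and the U1 genes were summed before the fit, the values were 1302, 1985, 19772 and 7823. Their log2 fold change was 3.07 (SE 0.29), which is 8.42-fold, with an adjusted p of 7.7e-08 in edgeR. The genomic copies behind the row's reads were not analysed here. The rows of ribosomal RNA, which the library kit depletes, took 1.79%, 1.59%, 3.62% and 2.69% of the 4 libraries, so that they too were highest in genistein 1 and next in genistein 2. Their part in the U1 row was not tested.

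**Figure D2:**
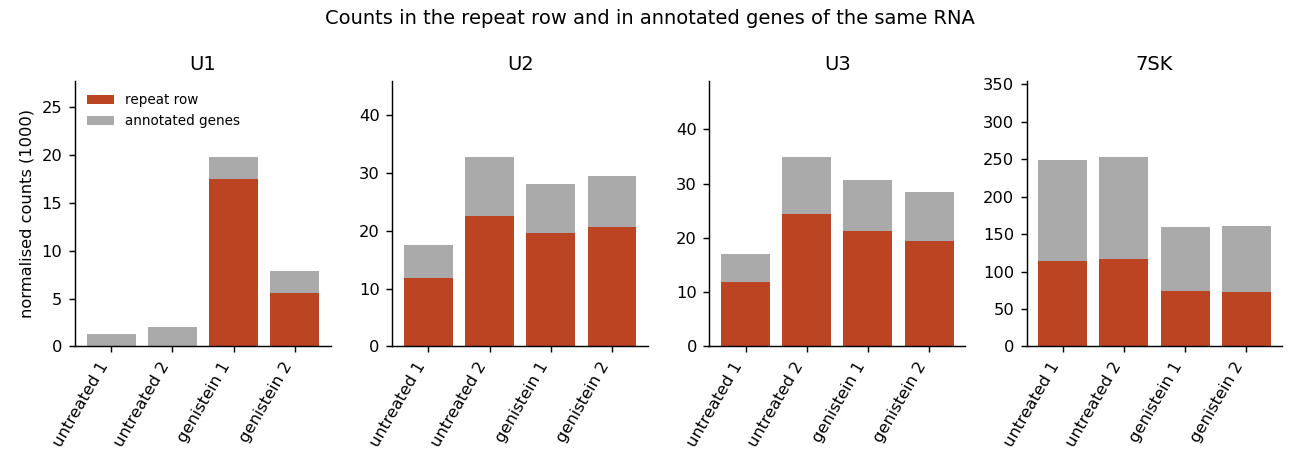
Normalised counts (in units of 1000) of the repeat row (red) and of all annotated genes of the same RNA (grey), stacked, in each of the 4 libraries, for U1, U2, U3 and 7SK with a separate axis for each RNA. The row is 4.91% to 6.29% of the U1 counts in untreated libraries and 70.7% to 88.2% in genistein libraries, while in the other 3 RNAs the row and the genes keep nearly the same proportion.

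The U2 row was set by 1 library. Its normalised counts were 11742, 22494, 19681 and 20562, so that the untreated libraries lay on both sides of the genistein libraries. The log2 fold change was 0.23 (SE 0.17, adjusted p = 0.24, edgeR). It was -0.17 without untreated 1 and 0.77 without untreated 2, and both values passed the threshold in opposite directions. Without the filter on low counts it passed as well, at 0.21. With DESeq2, the test that the study used, it was 0.21 and did not pass (adjusted p = 0.75). The row took 66.8% to 70.0% of all U2 counts in each library. The 3 U2 genes with the most counts, Gm25360, Gm22973 and Gm25939, had log2 fold changes of 0.13, 0.12 and 0.23 with adjusted p of 0.49, 0.45 and 0.17.

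Of the 12 U2 genes tested, 5 were lower and 0 higher, while 33.5% of all genes were higher and 38.2% lower. The lower genes were copies with few counts. Rnu2-10, the copy printed above, was at 83.9, 101, 46.9 and 45.6 normalised counts and fell by 0.99 on the log2 scale (SE 0.18, adjusted p = 1.1e-04, edgeR). The abundant copies and Rnu2-10 thus differed in their values, but a difference between copies was not tested, and near-identical copies share reads, so that the split of counts among them is uncertain.

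The rows of the U4, U5 and U6 particle had few counts. U6, which forms part of the catalytic centre, was at 139.9, 138.7, 212.9 and 183.2, and the groups did not overlap. Its log2 fold change was 0.51 (SE 0.12, adjusted p = 0.0011, edgeR), but it was -0.19 and not past the test when repeats were scaled among themselves. The table held 539 genes whose transcripts matched U6, 140 of them with counts, and with these added the log2 fold change was 0.40. Gm22107, the U6 gene with the most counts, was at 48.9, 58.2, 99.4 and 102 (log2 fold change 0.91, SE 0.17, adjusted p = 1.2e-04), and Gm22392 was at 65.9, 55.1, 41.3 and 38.5 (-0.60, SE 0.20, adjusted p = 0.013). Gm24655 had 0.62 (SE 0.26, adjusted p = 0.039). Of the 10 U6 genes tested, 3 were higher and 1 lower, where all genes had 33.5% higher and 38.2% lower.

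U5, which holds the exons in place during splicing, was at 45.0, 47.6, 64.7 and 47.6 normalised counts, and the groups overlapped. Its log2 fold change was 0.29 (SE 0.21, adjusted p = 0.23, edgeR). With the 10 matched U5 genes added it was -0.24 (SE 0.10, adjusted p = 0.039), and the row was 9.74% to 16.7% of all U5 counts. Of the U5 genes with the most counts, Gm25099 had -0.15 (SE 0.17, adjusted p = 0.43), Gm23287 -0.71 (SE 0.21, adjusted p = 0.0074) and Gm25313 -0.11 (SE 0.22, adjusted p = 0.66). U4, which keeps U6 inactive until splicing starts, was at 26.0, 14.8, 24.4 and 40.5. The U4 groups overlapped, and the log2 fold change was 0.64 (SE 0.33, adjusted p = 0.088, edgeR). With each library left out in turn it ranged from 0.25 (without genistein 2) to 1.11 (without untreated 1). No reference transcript was found for U4, so that no annotated genes were matched to it.

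U7, which guides the cleavage of histone pre-mRNA, had raw counts of 2, 0, 0 and 7 and was not tested. The 35 genes matched to U7 held 16, 12, 18 and 12 raw counts in all. A count of 0 allows up to 3 counts in that library, by counting error only, so that a change in U7 was not detectable at this depth.

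Among the small nucleolar RNAs, U3 had by far the most counts. U3 is needed for the early cuts in ribosomal RNA. Its row was at 11821, 24406, 21242 and 19387, and the untreated libraries lay on both sides of the genistein libraries, as for U2. The log2 fold change was 0.17 (SE 0.19, adjusted p = 0.45, edgeR), and it was -0.27 without untreated 1 and 0.78 without untreated 2, both past the threshold. Without the filter on low counts it passed at 0.14. With DESeq2 it was 0.14 and did not pass (adjusted p = 0.85). Rnu3a, the main U3 gene, was at 2512, 5165, 4689 and 4461, with 2 overlapping gene models that hold the same counts. Its log2 fold change was 0.26 (SE 0.18, adjusted p = 0.22).

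Of the 8 U3 gene models tested, 5 were lower and 0 higher, where 38.2% of all genes were lower and 33.5% higher. All 5 belonged to the minor Rnu3b genes, and 1 more Rnu3b model did not pass the test. Rnu3b1 was at 47.0, 58.2, 24.4 and 18.2 normalised counts in 1 of its gene models, a log2 fold change of -1.29 (SE 0.25, adjusted p = 2.2e-04, edgeR). Rnu3b3 had -1.68 (SE 0.40, adjusted p = 0.0014) in 1 of its gene models. These gene models overlap in pairs, and Rnu3b1, Rnu3b3 and Rnu3b4 matched the same reference at 100% identity. The 5 are thus not separate measurements.

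U17, a snoRNA needed for ribosomal RNA cleavage, was at 21.0, 26.5, 29.1 and 27.3 normalised counts (log2 fold change 0.25, SE 0.27, adjusted p = 0.42, edgeR). Both genistein values lay above the untreated values, but by less than the test can call. The row was only 0.246% to 0.294% of all U17 counts, and 5 annotated genes matched this RNA, of which Snora73a and Snora73b had the most counts. Snora73a was at 3566, 4336, 3864 and 3733 (-0.06, SE 0.06, adjusted p = 0.42), and Snora73b at 2240, 3958, 4001 and 3848 (0.34, SE 0.15, adjusted p = 0.046), with untreated 1 the lowest of both. Another copy, Gm26448, was at 1319, 2432, 2054 and 1994 (0.12, SE 0.16, adjusted p = 0.53).

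The other snoRNA rows were close to empty. U13_ held 11, 7, 8 and 9 raw counts, U14 held 0, 2, 1 and 0, U13 held 0, 1, 0 and 1, and U8 was at 0 in all 4 libraries. Their annotated genes did hold counts. The 4 Snord14 genes tested, which encode U14, were all lower, where 38.2% of all genes were lower. Their log2 fold changes were -1.27 for Snord14d, -1.23 for Snord14a, -0.98 for Snord14c and -0.98 for Snord14e. Snord14c, Snord14d and Snord14e lie close together on chromosome 9, and Snord14d matched Snord14c at 97.67% identity. The 4 genes may therefore not all be separate measurements. Snord118, the gene of U8, was at 115.9, 128.1, 76.9 and 68.8 (-0.74, SE 0.15, adjusted p = 3.1e-04, edgeR). Snord13, the gene of U13, went the other way with 63.9, 79.4, 112.5 and 99.2 (0.57, SE 0.16, adjusted p = 0.0049).

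The 7SK row, the RNA that holds P-TEFb, fell with genistein. Its normalised counts were 113688, 116016, 73611 and 72214, and both genistein libraries lay far below both untreated libraries. The log2 fold change was -0.66 (SE 0.04, adjusted p = 1.6e-10, edgeR), which is 1.58-fold lower. Rn7sk, the annotated gene, was at 134541, 136889, 85490 and 88064 and changed by -0.65 (SE 0.04, adjusted p = 1.4e-10). The row took 45.1% to 46.3% of all 7SK counts in each library, so that row and gene fell in step.

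The 7SLRNA row had the most counts of the 19 and fell most among the rows tested. It was at 1444378, 1541987, 737600 and 713396, with no overlap between groups. The log2 fold change was -1.04 (SE 0.03, adjusted p = 1.0e-14, edgeR), which is 2.06-fold lower and rank 1109 of the 1118 repeats from the highest. The value lay close to the fold limit, and it was -0.97 when scaled by library totals. The annotated copies fell as well, with -1.13 (SE 0.05) for Rn7s2, -1.15 (SE 0.06) for Rn7s1 and -1.04 (SE 0.10) for Rn7s6, although the row took 99.7% of all 7SL counts in each library. Near-identical copies share reads, so that the split among them is uncertain.

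BC1 is a rodent RNA known from neurons, where it restrains translation at synapses. The Bc1 gene printed above had no entry among the counted genes, and the genomic copies behind the BC1_Mm row were not analysed. The row was at 2300, 2371, 3076 and 3013, and both genistein libraries lay above both untreated libraries. The log2 fold change was 0.38 (SE 0.04, adjusted p = 9.9e-08, edgeR), but it was -0.32 when repeats were scaled among themselves, as the median over all repeats was 0.69.

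The Y RNA rows carry the names of the human RNAs. HY1 held 2, 1, 6 and 4 raw counts, HY4 held 8, 0, 9 and 3, and HY3 and HY5 were at 0 in all libraries. The mouse genes held more, with Rny1 at 629, 961, 897 and 755 normalised counts and Rny3 at 494, 873, 762 and 589. Their log2 fold changes were 0.06 (SE 0.13, adjusted p = 0.68, edgeR) and -0.01 (SE 0.17, adjusted p = 0.98), and the untreated libraries again lay on both sides of the genistein libraries.

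**Figure D3:**
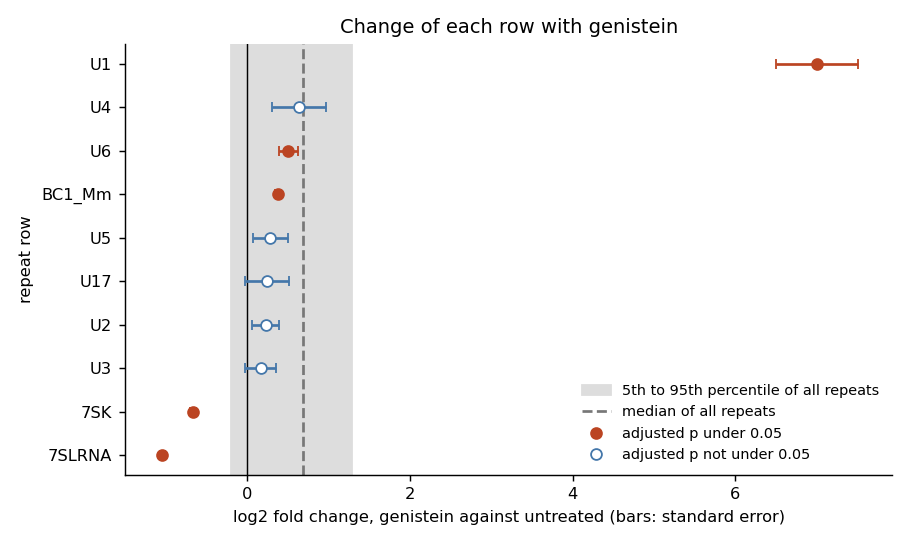
Log2 fold change of genistein against untreated, with its standard error, for the 10 rows tested, where filled red points have an adjusted p under 0.05 in edgeR. The grey band and the dashed line give the 5th to 95th percentile (-0.19 to 1.29) and the median (0.69) of all repeats tested, U1 lies above the band, 7SK and 7SLRNA lie below it, and U6 and BC1_Mm lie left of the median (with repeats scaled among themselves, U6 is not called and BC1_Mm is called lower).

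U2 and U3 shared their difference between the untreated libraries with other small RNAs. Among the 5877 genes and repeats with a mean normalised count over 1000, the log2 ratio of untreated 2 to untreated 1 had its middle 95% between -0.13 and 0.14. The U3 row had a ratio of 1.05, the highest of all, and the U2 row one of 0.94, among the 4 highest. The U1 row stood out in the genistein pair, with the lowest log2 ratio of all at -1.66.

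The same ratio was taken for the 105 gene models with an annotated small RNA transcript and a mean over 100. Among them is the protein-coding gene Nbr1, entered by a transcript of 63 bases. Of the 22 with transcripts of 150 to under 250 bases, 14 had an untreated log2 ratio over 0.5. The median of the 22 was 0.79 in the untreated and -0.04 in the genistein pair. The 14 include U2 genes (Gm25360, Gm22973, Gm25939 and Gm26316), the U1 gene Gm22513 and U17 genes (Gm26448 and Snora73b). They also include Rnu3a, counted in both of its gene models. Not matched to these families were Rnu12, Snora74a, Snora23, Snord17 and Gm24119, at 0.80, 0.59, 1.19, 0.97 and 1.10. Of the 70 shorter genes 17 passed 0.5, with a median of 0.15, and of the 13 longer genes 2 did, with a median of 0.04. The low values of untreated 1 were thus most frequent in the group of 150 to under 250 bases, which itself holds genes of U1, U2 and U3. The part of length in the results for these rows was not tested. 7SK and 7SLRNA had untreated log2 ratios of 0.03 and 0.09.

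**Figure D4:**
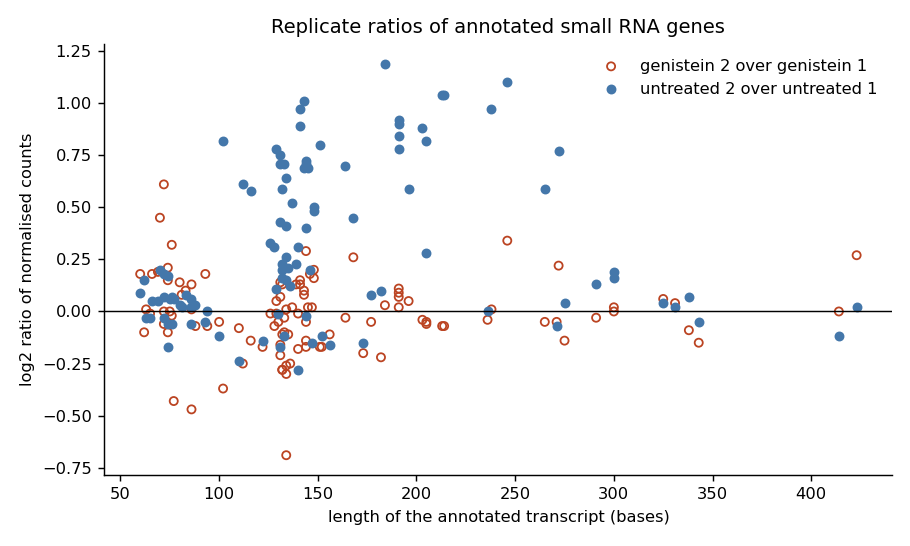
Log2 ratio of replicate 2 to replicate 1 against the length of the annotated small RNA transcript in bases. Points are the 105 gene models with such a transcript and a mean normalised count over 100. Filled blue points are the untreated and open red points the genistein libraries. Of the 22 genes of 150 to under 250 bases, which include U1, U2 and U3 genes, 14 lie over 0.5 in the untreated libraries. The median of the 22 is 0.79 there and -0.04 in the genistein libraries.

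The genes whose proteins bind or make these RNAs mostly fell. Of 110 listed genes 109 were tested, and 92 were lower and 7 higher with genistein at an adjusted p under 0.05 in edgeR, with a median log2 fold change of -0.62, where all genes had 38.2% lower, 33.5% higher and a median of -0.03. The 3 genes of U1-specific proteins were all lower. Snrnp70, which contacts U1 and splicing factors, was at 5327, 5010, 2917 and 3034 (-0.80, SE 0.04), and Snrpa at 1763, 1503, 1088 and 1149 (-0.55, SE 0.06). These genes thus had the direction opposite to the U1 row.

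The Sm proteins form the ring on spliceosomal snRNAs, and 7 of their 8 genes were lower. Snrpd1 was at 2523, 2486, 1071 and 1052 (log2 fold change -1.24, SE 0.04) and Snrpf at 1582, 1566, 716 and 654 (-1.20, SE 0.06). All 11 genes of U2 proteins were lower, led by Snrpa1 (-1.22) and Sf3a3 (-1.04), and so were all 15 genes of U4/U6 and U5 proteins, led by Usp39 (-0.95) and Snrnp40 (-0.94). The 8 Lsm genes, whose proteins bind the end of U6 or act in mRNA decay, were lower too, with -1.28 for Lsm7 and -0.96 for Lsm3.

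Of 15 genes of the SMN complex, cap formation and import, 14 were lower, including Gemin6 (log2 fold change -1.21) and Gemin5 (-1.14). The list of SNAPc, which starts snRNA transcription, and Integrator, which cuts the 3′ end, held 19 genes, of which 14 were lower and 2 higher. Of the 14 Integrator genes 13 were lower, including Ints3 (-1.04) and Ints11 (-0.71), and Ints9 (0.23) was higher. Of the 5 SNAPc genes 1 was lower, Snapc5 was higher (0.54) and 3 did not pass the test. The U7 list of 4 genes was split, with Zfp473 (0.62) and Lsm10 (0.26) higher and Lsm11 (-0.64) and Slbp (-0.20) lower.

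The snoRNP proteins had the lowest median of the lists, -1.39, and all 8 genes were lower. Dkc1, the pseudouridine synthase, was at 4451, 4301, 1329 and 1306 (log2 fold change -1.73, SE 0.04), and Nop56, a core protein of C/D box snoRNPs, at 11039, 10641, 3597 and 3473 (-1.62, SE 0.04). The U3 row and Rnu3a, whose RNA Nop56 binds, had no change past the test in the main fit. The U3 row was at -0.27 without untreated 1 and at 0.78 without untreated 2, so that its direction is undecided. The Rnu3b gene models that passed the test were lower.

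The genes of the 7SK particle and P-TEFb did not move one way. Hexim1, the inhibitor that binds 7SK and P-TEFb, was at 858, 762, 1329 and 1396 and rose by 0.75 on the log2 scale (SE 0.06, adjusted p = 1.1e-08, edgeR), and Ccnt2 rose by 0.14 (SE 0.04). Larp7, which protects the 3′ end of 7SK, was at 1646, 1679, 1218 and 1159 (-0.48, SE 0.05), and Cdk9, the kinase, at 1181, 1162, 926 and 878 (-0.38, SE 0.05). The other 3 of the 7 genes did not pass the test. Thus 7SK, Larp7 and Cdk9 were lower while Hexim1 was higher.

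Of the 9 signal recognition particle genes tested, 6 were lower and 1 higher, with a median log2 fold change of -0.38. Srp68 was at 2787, 2717, 1877 and 1890 (-0.55, SE 0.04) and Srprb, a receptor subunit, had -0.45 (SE 0.05), whereas Srp72 was at 5377, 5298, 6034 and 6038 (0.18, SE 0.03). Both genes for proteins that bind Y RNAs and RNA polymerase III transcripts were lower, Ssb with -0.87 (SE 0.04) and Trove2 with -0.14 (SE 0.04).

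**Figure D5:**
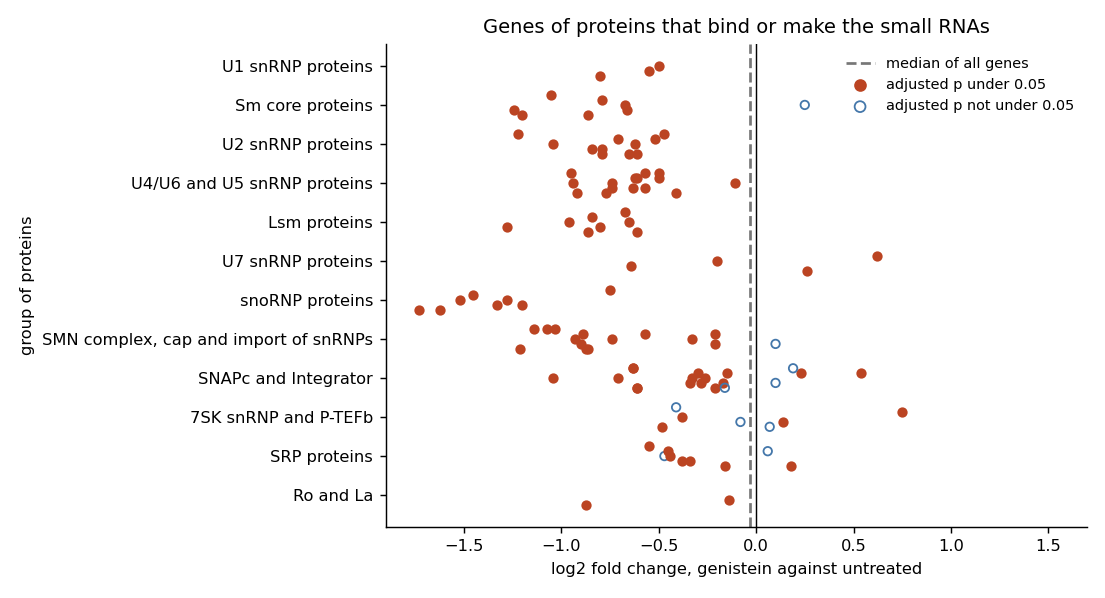
Log2 fold change of genistein against untreated for the 109 tested genes of 12 lists of proteins that bind or make the small RNAs, 1 point a gene, where filled red points have an adjusted p under 0.05 in edgeR and the dashed line is the median of all genes (-0.03). Of the 109 genes 92 are lower and 7 higher, and Hexim1 has the largest rise at 0.75.

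Genes with a Gm number, a Rik name or no symbol were left out of the search for entries most like a row. The entries nearest to 7SLRNA, by the distance of centred log2 CPM over the 4 libraries, were Rn7s6 (0.03), Fyb (0.04) and Adgrl1 (0.04). For the U1 row they were Ces2e (1.35), Ces2f (1.68) and Svop (2.01), so that its nearest entry lay much farther away. Ces2e was at 8.99, 4.24, 809 and 763 normalised counts, without the difference between genistein libraries that U1 had.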

How the data were processed

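The members and gene lists were chosen with earlier results of these data known. Total RNA was column purified and made into stranded, ribosomal RNA-depleted libraries. The authors trimmed reads with Trim Galore, aligned them to mm10 with STAR, keeping multi-mapping reads, and deposited counts per gene and repeat from TEtranscripts, with GENCODE genes and a modified RepeatMasker annotation. Counts are thus estimates shared among copies, and whether strand was used in counting is not given in the sources used here. Each library was 1 of 2 per group, and depth was 28591958 to 31464284 counts. An entry without a name (0.00208% to 0.00314% of a library) was left out. The 17358 entries passing filterByExpr were tested with edgeR 4.0.16 (R 4.3.3), with TMM scaling, the quasi-likelihood test, and Benjamini-Hochberg adjustment, checked on simulated data. The SE is the absolute log2 fold change divided by the square root of F. With 2 against 2 libraries, an exact permutation test cannot go below p = 0.333, so none was used. Annotated genes of each RNA were matched by name or with blastn 2.17.0 (at least 80% identity and 80% of the reference) to GENCODE transcripts of GRCm38, the assembly of mm10. The 7SL sequence is not reported here. Every row is named. Of each list of proteins, up to 2 higher and 2 lower genes with the largest changes at an adjusted p under 0.05 are named, of each RNA up to 3 annotated genes by mean count, and for rows past all thresholds the 3 entries most alike. Printed copies and the other Snord14 and Rnu3b genes were named after their values were seen. Alternatives were other scalings, no filter, DESeq2 1.42.0, a replicate block, each library left out, and rows summed with their genes.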

Additional observations from a re-analysis of the deposited data

How the results depend on the processing

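With 2 libraries per group, 1 library can decide a row. When each library was left out in turn, the log2 fold change ranged from -0.17 to 0.77 for U2, from -0.27 to 0.78 for U3 and from 0.25 to 1.11 for U4, where the lowest values of U2 and U3 came without untreated 1 and the highest without untreated 2. It ranged from 5.95 to 7.61 for U1 and from -1.09 to -1.0 for 7SLRNA. The rows called higher then numbered 3 to 5, the rows called lower 2 to 4, those past all thresholds 1 to 2, and the protein genes called higher 4 to 6 in place of 7. A group of 1 library is assumed there to vary like the other group.

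With repeats fitted alone, which removes the rise of the median repeat, log2 fold changes turned to -0.32 for BC1_Mm, -0.44 for U17, -0.45 for U2, -0.51 for U3, -0.05 for U4, -0.41 for U5 and -0.19 for U6, and 1 row was called higher. With library totals or with factors from genes alone, 1 row was past all thresholds, with 7SLRNA at -0.97 or just short of the limit, and 11 protein genes were higher. Without the filter, U2 (0.21) and U3 (0.14) passed the test and 5 rows were higher. DESeq2 called neither U2 nor U3, and it called 3 protein genes higher. With annotated genes added, U5 was -0.24, and without a fold limit 5 rows were past the thresholds. The cause of these shifts was otherwise not tested. U1, 7SK and 7SLRNA kept their direction and their adjusted p under 0.05 in every alternative run.

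Replicate numbers did not pair the libraries by the labels, and the correlation of the deviations of same-numbered libraries was -0.03. With a replicate block U2 was 0.31 (past the test), and 4 rows were higher in place of 3.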
